A study of Mus musculus with 12 samples.

Results

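The genes described here encode subunits of the mitochondrial oxidative phosphorylation machinery, and their expression was compared among 4 mouse arteries. They were chosen by symbol in the array platform's annotation: Ndufa, Ndufb, Ndufc, Ndufs or Ndufv followed by a number (complex I), Sdha to Sdhd (complex II), symbols starting with Uqcr (complex III), Cox4 to Cox8 followed by letters or digits (complex IV), Atp5 followed by letters or digits (complex V) and Cycs (cytochrome c). Cox7a1 and Cox8b were left out by the rule. The rule itself uses names and no measured value, but it was set with earlier results of these data known. It gave 79 of the 19938 genes tested: 34 for complex I, 4 for complex II, 8 for complex III, 15 for complex IV, 17 for complex V and 1 for cytochrome c. A few symbols that match the rule belong to proteins of another role, such as Cox7a2l, an assembly factor of respiratory supercomplexes, and Ndufa4, which is now counted with complex IV.

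Total RNA came from 4 vessels of untreated wild-type C57BL/6 mice aged 8 weeks: the aorta in its ascending and descending segments, the coronary artery and the superior mesenteric artery. Each vessel had 3 biological replicates, on 12 Affymetrix arrays in all. The study looked for expression that goes with the embryonic origin of a vessel. The labels leave unsaid whether a replicate was 1 animal or pooled animals, and p-values here reflect only how far these samples spread. Values are log2 expression as deposited, differences are in log2 units ± SE from limma, levels are means ± SD with n = 3, and a gene was called where its limma adjusted p was under 0.05.

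Oxidative phosphorylation passes electrons from NADH (through complex I) and succinate (through complex II) to coenzyme Q, then through complex III and cytochrome c to complex IV, which reduces oxygen. Complexes I, III and IV pump protons out of the matrix, and complex V, the ATP synthase, lets them return and makes ATP. Heart muscle is among the tissues with the most mitochondria, and brown fat, which lies around the aorta in mice, runs the same chain with the protons returned through Ucp1 so that heat is made. Several complex IV subunits come in pairs of which a form is made in heart and skeletal muscle. The subunits encoded by mitochondrial DNA were not analysed here.

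Marker genes of cell types other than those of the vessel wall read high in some arrays. Several marker lists differed in the same comparisons as the members, and tissue composition was not measured. All 3 coronary artery arrays had a cardiomyocyte marker list of 17 genes at a mean of 9.97 to 10.16, against 3.85 to 5.80 in the other 9 arrays, and the smooth muscle list of 13 genes stood lowest there, at 5.57 to 5.92. Myh11, the smooth muscle myosin heavy chain, read 5.29, 5.02 and 4.45 in the coronary artery arrays and 6.75 to 10.87 in the others. Ucp1, the brown fat uncoupling protein, read 10.60 to 11.21 in ascending aorta and 11.29 to 11.59 in descending aorta. It read 3.05 to 5.87 in coronary artery and 3.43 to 6.82 in superior mesenteric artery. The brown adipocyte list with Ucp1, Cox7a1 and Cox8b (11 genes) averaged 6.32 to 7.13 in ascending and 7.26 to 7.90 in descending aorta. Its mean was 5.55 to 5.71 in coronary artery and 4.14 to 4.83 in superior mesenteric artery. Of the 11 genes, 7 had a higher mean in ascending aorta than in coronary artery and 4 a lower one. Ascending aorta replicate 1 had a B cell list of 10 genes at 7.54, against 3.90 and 3.86 in replicates 2 and 3. That list read 4.58, 6.59 and 6.26 in the superior mesenteric artery arrays. It read 3.69 to 4.54 in coronary artery and 3.64 to 4.64 in descending aorta. Superior mesenteric artery replicate 3 had a pancreatic acinar list at 9.42, against 5.12 and 3.63, and descending aorta replicate 1 had the cardiomyocyte list at 5.80, against 4.03 and 3.85. Over all genes, array medians ranged from 4.04 to 4.18. With 3 arrays a vessel, their number limits the precision.

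Promoters of members that the results turn on are shown for orientation, as the 150 bases before the RefSeq transcript start (GRCm38.p6). Cycs and Cox5a were among the members with large differences between vessels, Cox6a1 is the widely made partner of the muscle form Cox6a2, and Atp5g1, Atp5g2 and Atp5g3 encode the same ring subunit with different levels. Capitals mark matches, on either strand, to the letters GCGCATGCG (NRF1), AAGGTCA (oestrogen-related receptors) or CCGGAAG (ETS factors, which include GABP); matches to other motifs are not marked. Cycs lies at chr6:50566570-50566719 on the minus strand, Cox5a at chr9:57521082-57521231 on the plus strand, Cox6a1 at chr5:115348959-115349108, Atp5g1 at chr11:96075632-96075781, Atp5g2 at chr15:102671048-102671197 and Atp5g3 at chr2:73911327-73911476, the last 4 on the minus strand.
Cycs: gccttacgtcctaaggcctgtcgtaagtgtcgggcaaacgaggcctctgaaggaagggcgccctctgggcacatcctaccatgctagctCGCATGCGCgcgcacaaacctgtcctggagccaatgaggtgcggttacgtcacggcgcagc
Cox5a: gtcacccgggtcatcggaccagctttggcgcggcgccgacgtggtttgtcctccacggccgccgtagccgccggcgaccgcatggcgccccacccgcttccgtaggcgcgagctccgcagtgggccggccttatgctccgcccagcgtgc
Cox6a1: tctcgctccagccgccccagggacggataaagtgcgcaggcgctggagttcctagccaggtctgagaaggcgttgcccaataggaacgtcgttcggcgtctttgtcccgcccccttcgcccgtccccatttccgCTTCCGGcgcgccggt
Atp5g1: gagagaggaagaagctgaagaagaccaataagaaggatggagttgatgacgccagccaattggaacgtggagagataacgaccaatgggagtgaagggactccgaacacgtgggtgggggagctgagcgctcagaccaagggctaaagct
Atp5g2: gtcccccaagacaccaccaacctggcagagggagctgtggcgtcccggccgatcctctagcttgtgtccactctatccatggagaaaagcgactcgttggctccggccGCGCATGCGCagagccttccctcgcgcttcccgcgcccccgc
Atp5g3: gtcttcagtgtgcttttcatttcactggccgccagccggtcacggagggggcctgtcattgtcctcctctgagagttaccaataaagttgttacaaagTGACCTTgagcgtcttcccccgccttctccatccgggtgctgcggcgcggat

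In the printed stretches, Cycs and Atp5g2 held the NRF1 letters, which begin 61 bases before the start of Cycs. Atp5g3 held the oestrogen-related receptor letters, 52 bases before its start, and Cox6a1 held the ETS letters, 16 bases before. Cox5a and Atp5g1 held none of these 3 motifs in the 150 bases shown. RefSeq promoters were matched for 65 of the 79 members, some with more than 1 start, which gave 70 promoters. Over 250 bases before the start, 7 of the 70 (10%) held the NRF1 letters, against 1.45% of all 32851 promoters in the table, and 12 (17.1%) held the ETS letters, against 6.91%. The oestrogen-related receptor letters were in 4 (5.71%, against 4.08% of all), the YY1 letters AAGATGG in 1 (1.43%, against 4.49%) and the GC box GGGCGG in 24 (34.3%, against 32.7%). The members' promoters had a median GC content of 56.4%, against 52.4% over all promoters, and a match is a description of the letters and no measured binding.

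Most subunit genes varied among the vessels together, high in coronary artery and descending aorta and low in superior mesenteric artery. The mean over all 79 members was 9.69, 9.71 and 9.80 in the coronary artery arrays, 9.49, 9.69 and 9.56 in descending aorta, 8.29, 9.26 and 9.27 in ascending aorta, and 8.17, 8.34 and 8.22 in superior mesenteric artery. The coronary artery and descending aorta arrays stood close together, the superior mesenteric artery arrays stood below both, and ascending aorta replicate 1 lay nearer the mesenteric arrays than its own replicates. Coronary artery had the highest vessel mean for 46 members and descending aorta for the other 33. Superior mesenteric artery had the lowest mean for 70 members, ascending aorta for 7 and descending aorta for 2.

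**Figure D1:**
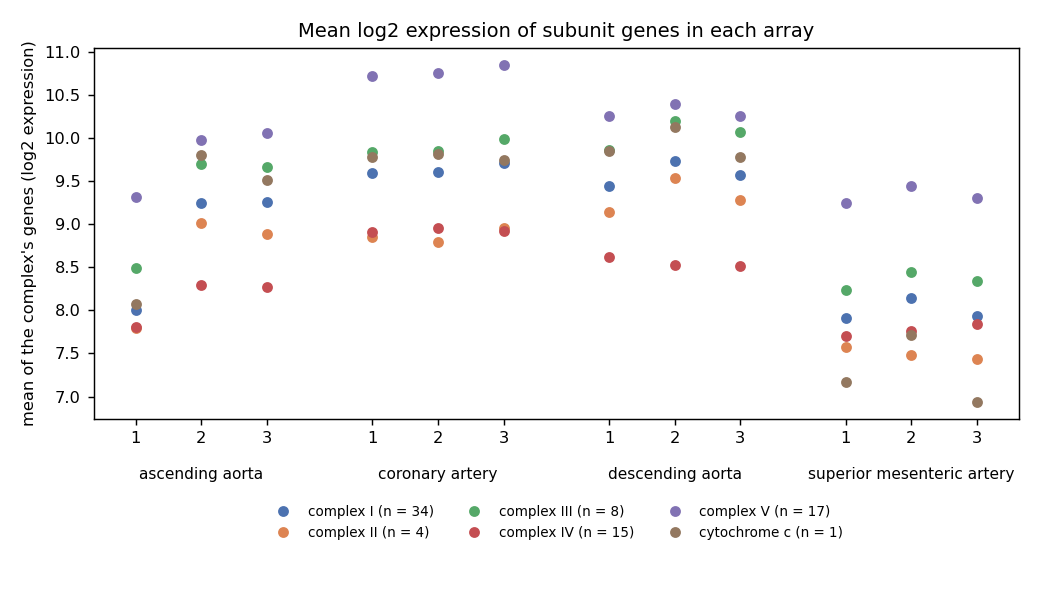
Mean log2 expression of the subunit genes of each complex in each of the 12 arrays; the x axis gives vessel and replicate, each point is 1 array, and n in the key is the number of genes. For each of the 5 complexes and for cytochrome c, every coronary artery and descending aorta array lay above every superior mesenteric artery array.

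In limma's F test among the 4 vessels, 66 of the 79 members passed, with adjusted p between 2.71e-06 and 0.0482, where 4.72% of all genes passed. All 8 complex III genes and Cycs passed, with 30 of 34 for complex I, 3 of 4 for complex II, 14 of 17 for complex V and 10 of 15 for complex IV. The 13 that did not pass were Ndufa2, Ndufa7, Ndufa11, Ndufa13, Sdhc, Cox4i2, Cox6b2, Cox7a2l, Cox7b2, Cox8c, Atp5e, Atp5l and Atp5md. Cox4i2, a form of the complex IV subunit 4 known from lung and low oxygen, and Cox6b2, Cox7b2 and Cox8c, forms known mainly from testis, were called in no comparison. Their arrays lay between 4.03 and 4.95 for Cox4i2, 4.09 and 6.46 for Cox6b2, 1.71 and 2.56 for Cox7b2, and 2.26 and 3.02 for Cox8c. The count that passed was 40 without coronary artery replicate 3 and 39 without superior mesenteric artery replicate 3.

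**Figure D2:**
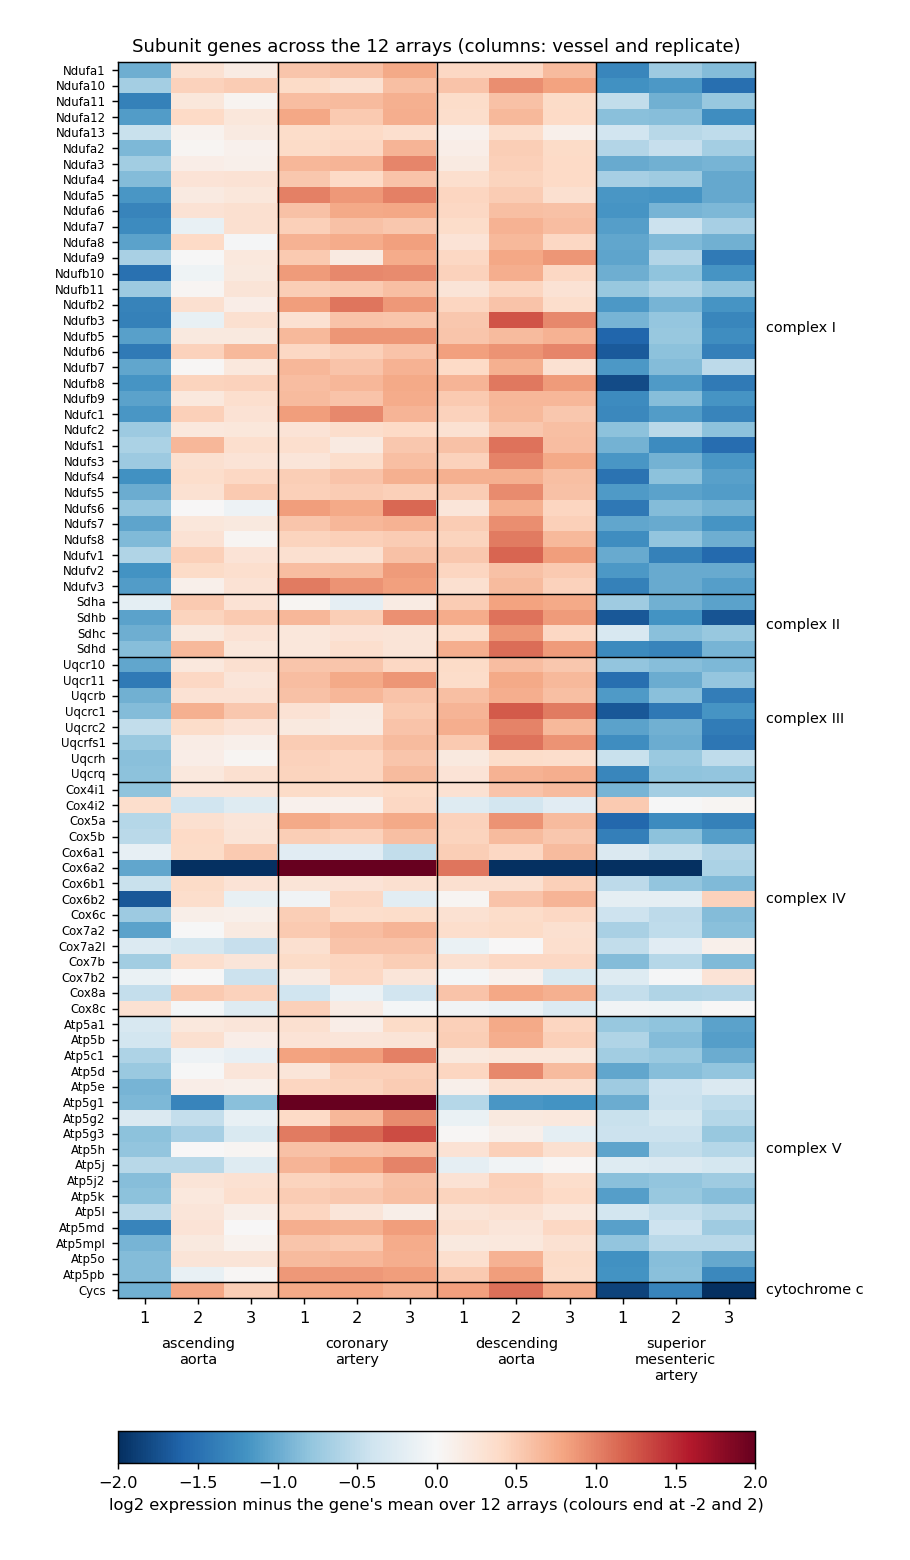
Log2 expression of every subunit gene in each array, as the difference from the gene's mean over the 12 arrays, with genes in rows ordered by complex and arrays in columns by vessel. The 3 superior mesenteric artery columns and ascending aorta replicate 1 stand low for most genes, while Cox6a2 and Atp5g1 are far higher in the 3 coronary artery columns than in the others.

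The members' profiles over the 12 arrays ran closely together, apart from a small group. The Pearson correlation of each member with the mean of the other members had a median of 0.965, and 65 members were above 0.9. Atp5o, the stalk subunit OSCP of the ATP synthase, had the highest at 0.995. The lowest were Cox4i2 at -0.418, Cox8c at -0.0305, Cox7b2 at 0.256, Cox6b2 at 0.431, Atp5g1 at 0.454, Cox6a1 at 0.456 and Cox6a2 at 0.457. These values are a description over 12 arrays that share a vessel in groups of 3, and array-wide differences enter all of them. Outside the members, the 5 genes with the most similar profile to the members' mean were Mrps36 (r = 0.992), Fuom (0.989), Timm17a (0.988), Ndufab1 (0.988) and Hint3 (0.986). Ndufab1, the acyl carrier protein that is also part of complex I, read 10.35, 10.42 and 10.50 in coronary artery and 7.96, 8.34 and 7.84 in superior mesenteric artery.

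Coronary artery against superior mesenteric artery gave the most calls. Of the 79 members, 68 were higher in coronary artery and 0 were lower, where 2.71% of all genes were higher and 0.527% lower. The median difference over the members was 1.49, against -0.02 over all genes, and in 74 members every coronary artery array lay above every mesenteric array, as in 11.3% of all genes. The called differences ran from 0.85 to 6.49, which is 1.80-fold to 89.9-fold. The cardiomyocyte list differed in the same direction in this comparison, with 16 of 17 genes higher in coronary artery, and its part in the members' differences was not tested. The brown adipocyte list without Cox7a1 and Cox8b (9 genes) averaged 4.36, 4.33 and 4.15 in the coronary artery arrays and 4.05, 4.16 and 3.64 in the mesenteric arrays. In whole vessels, fewer mitochondria-rich cells and less RNA per cell cannot be told apart. The count of members called was 45 without coronary artery replicate 1, 45 without replicate 2, 35 without replicate 3 and 45 without superior mesenteric artery replicate 3.

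Of the complex I genes, 33 of 34 were higher in coronary artery than in superior mesenteric artery, with a median difference of 1.71. Ndufs6, an accessory subunit of the NADH-oxidising arm, read 10.15, 10.07 and 10.47 in coronary artery and 7.89, 8.45 and 8.37 in superior mesenteric artery. It differed by 1.99 ± 0.24 (limma adjusted p = 0.000433). Ndufa3, an accessory subunit of the membrane arm, read 10.48, 10.49 and 10.79 against 8.81, 8.85 and 8.88. In both genes the arrays of the vessels were separate, with the mesenteric arrays low. Ndufb8, another accessory subunit of that arm, had the largest difference of the complex, 2.13 ± 0.36 or 4.37-fold (limma adjusted p = 0.00532). Ndufv1, which binds NADH and holds the flavin that takes its electrons, read 7.90, 7.88 and 8.17 against 6.57, 6.22 and 6.03, a difference of 1.71 ± 0.27. Ndufa7 was the complex I gene not called, at 1.26 (limma adjusted p = 0.0591).

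Complex II oxidises succinate and is also an enzyme of the TCA cycle. Sdhb, its iron-sulfur subunit, read 9.68, 9.51 and 9.93 in coronary artery and 7.33, 7.83 and 7.29 in superior mesenteric artery, a difference of 2.22 ± 0.35 (limma adjusted p = 0.00321). Sdha, the flavoprotein that binds succinate, differed by 0.92 ± 0.21 and Sdhd, a membrane anchor, by 1.44 ± 0.30, both called. Sdhc, the other anchor, was at 0.88 with a limma adjusted p of 0.166.

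In complex III, which takes electrons from coenzyme Q to cytochrome c, all 8 genes were higher in coronary artery than in superior mesenteric artery, by 1.05 to 1.84. Uqcrfs1, the Rieske iron-sulfur protein, read 8.42, 8.44 and 8.54 against 6.66, 6.92 and 6.47 (difference 1.78 ± 0.25, limma adjusted p = 0.00121). Cycs, the soluble electron carrier between complexes III and IV, read 9.78, 9.81 and 9.74 in coronary artery, 9.85, 10.13 and 9.78 in descending aorta, and 7.17, 7.71 and 6.94 in superior mesenteric artery. The mesenteric arrays were all lower by more than 2 log2 units than any coronary or descending aorta array. The fitted difference was 2.51 ± 0.36, or 5.68-fold, for coronary artery (limma adjusted p = 0.00165), and 2.65 ± 0.36, or 6.26-fold, for descending aorta (limma adjusted p = 0.00214), the largest of any member there. Cycs had 3 probe sets, and its size depended on the set used. On the others, coronary minus superior mesenteric artery was 2.56 and, on a dim set with a mean of 3.92, 1.55.

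In complex IV, 8 of 15 genes were higher in coronary artery than in superior mesenteric artery. Cox5a, a nuclear-encoded subunit that stabilises the core, read 10.34, 10.25 and 10.34 in coronary artery, 10.03, 10.48 and 10.21 in descending aorta, 9.0, 9.89 and 9.81 in ascending aorta, and 8.00, 8.32 and 8.23 in superior mesenteric artery. Its mesenteric arrays stood below the other 9, and it was the member called lower in superior mesenteric artery than in each other vessel, as were 0.0802% of all genes. Its call against ascending aorta, which this rests on, was lost without any 1 array other than ascending aorta replicate 1 (limma adjusted p = 0.0652 to 0.203) and in a fit of that pair's 6 arrays (0.716). The difference was 2.13 ± 0.23 for coronary artery (limma adjusted p = 0.000176) and 2.06 ± 0.23 for descending aorta (limma adjusted p = 0.000867). Cox5b read 11.03, 10.99 and 11.13 in coronary artery and 9.16, 9.72 and 9.44 in superior mesenteric artery, 3.05-fold apart. The muscle form Cox6a2 differed by 6.49 ± 0.79, while its partner Cox6a1 was at 0.13 and Cox8a at 0.26, neither called.

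In complex V, 15 of 17 genes were higher in coronary artery than in superior mesenteric artery, with a median difference of 1.29. Atp5c1, the central shaft that turns in the enzyme, read 10.60, 10.63 and 10.80 against 9.10, 9.06 and 8.81, a difference of 1.69 ± 0.18 (limma adjusted p = 0.000124). Atp5pb, subunit b of the outer stalk, read 10.22, 10.22 and 10.18 against 8.16, 8.52 and 8.07, a difference of 1.96 ± 0.23. Both genes separated the vessels without overlap. Atp5e, at 0.92, and Atp5l, at 0.73, were not called, with limma adjusted p of 0.0809 and 0.0852.

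**Figure D3:**
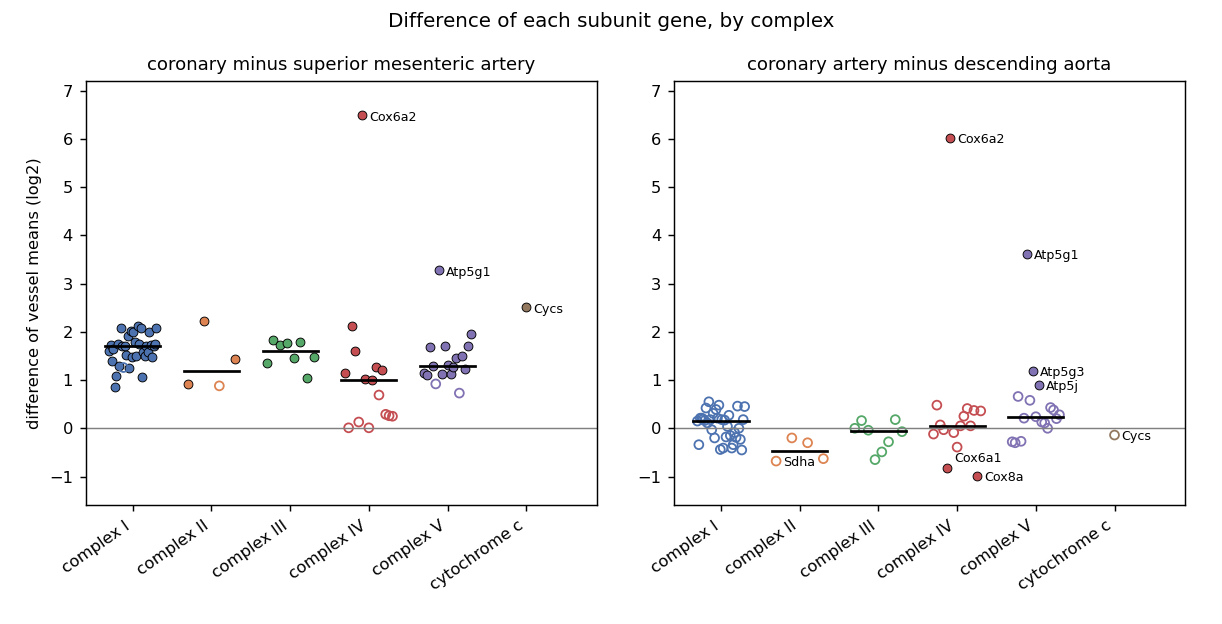
Difference of vessel means (log2 units, y axis) for each subunit gene by complex, coronary minus superior mesenteric artery on the left and coronary artery minus descending aorta on the right. Filled points passed limma's adjusted p under 0.05, open points did not, and a bar is the median of a complex with more than 1 gene. All 79 points on the left lie above 0, with a median of 1.49, while those on the right have a median of 0.11, with Cox6a2 and Atp5g1 far above.

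Descending aorta against superior mesenteric artery gave 58 members higher in descending aorta and 0 lower, where 2.84% of all genes were higher and 0.361% lower. The median difference was 1.43, against -0.01 over all genes, and in 72 members the descending aorta arrays all lay above the mesenteric arrays, as in 12.5% of all genes. The called differences ran from 0.95 to 2.65, or 1.93-fold to 6.26-fold. By complex, 30 of 34 genes of complex I were called, 3 of 4 of complex II, 7 of 8 of complex III, 8 of 15 of complex IV, 9 of 17 of complex V, and Cycs. After Cycs the largest differences were those of Sdhb at 2.42 ± 0.35 (limma adjusted p = 0.00273) and Uqcrc1, a core protein of complex III, at 2.41 ± 0.34 (limma adjusted p = 0.00256). Uqcrc1 read 8.60, 9.15 and 8.96 in descending aorta and 6.23, 6.5 and 6.74 in superior mesenteric artery. Ndufb8 followed at 2.31 ± 0.36 and Ndufb6 at 2.19 ± 0.42, both accessory subunits of complex I. Ndufv1 read 8.12, 8.75 and 8.42 against 6.57, 6.22 and 6.03, and all descending aorta arrays were higher.

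Brown fat markers differed in the same direction as the members between descending aorta and superior mesenteric artery. That list of 9 genes averaged 6.30, 6.45 and 7.03 in the descending aorta arrays, and the shared adipocyte list averaged 8.61 to 9.20 there and 6.48 to 6.92 in the mesenteric arrays. Of the cardiomyocyte list, 0 of 17 genes were called in this comparison. Their part in the members' differences was not tested. The count of members called was 38, 25 and 35 without descending aorta replicate 1, 2 and 3, and 38 and 31 without superior mesenteric artery replicate 1 and 3. Of Ndufb6, the call was lost without descending aorta replicate 2 or 3 or without superior mesenteric artery replicate 1 or 3, at limma adjusted p of 0.0532 to 0.0733.

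The comparisons of coronary artery and descending aorta with superior mesenteric artery share the mesenteric arrays, so their calls are not independent of each other. Of the 79 members, 56 were called in both, 12 for coronary artery alone, 2 (Cox6a1 and Cox8a) for descending aorta alone, and 9 in neither. Cox6a1 was higher by 0.95 ± 0.20 in descending aorta (limma adjusted p = 0.0222) and Cox8a by 1.25 ± 0.24 (limma adjusted p = 0.0146). Cox4i1, the usual form of subunit 4, differed by 1.15 from coronary artery and by 1.26 from descending aorta, both called, with arrays at 10.48 to 10.80 in descending aorta and 9.25 to 9.49 in superior mesenteric artery. Cox6b1 and Cox7b, the usual forms of their pairs, were also called in both, by 1.02 and 1.21 for coronary artery and by 1.10 and 1.15 for descending aorta. Cox7a2 was called for coronary artery, at 1.27, and was at 1.02 in descending aorta with a limma adjusted p of 0.0656.

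Between coronary artery and descending aorta the members' median difference was small, and a few isoform and ATP synthase genes were called. Of the 79 members, 4 were higher in coronary artery (Cox6a2, Atp5g1, Atp5g3 and Atp5j), where 1.53% of all genes were higher. Another 2 were lower (Cox6a1 and Cox8a), where 1.61% were lower. The median difference over the members was 0.11, against -0.01 over all genes, and it was 0.04 without descending aorta replicate 1 and 0.06 after a renewed quantile normalization. The 4 genes higher here were also higher in coronary artery than in ascending aorta and superior mesenteric artery, as were 1.06% of all genes. In 27 members every coronary artery array lay above every descending aorta array, where 9.88% of all genes did, and in 12 below, where 12.5% did. The brown adipocyte list of 9 genes averaged 4.36, 4.33 and 4.15 in coronary artery and 6.30, 6.45 and 7.03 in descending aorta, and its part in these differences was not tested. The intervals of the members not called were often wide: that of Cox5a, at 0.07, ran from -0.44 to 0.57 and that of Cycs, at -0.14, from -0.93 to 0.65 (95%).

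Cox6a2 encodes the form of complex IV subunit 6a made in heart and skeletal muscle. It read 12.12, 12.07 and 12.20 in coronary artery, 8.34, 5.11 and 4.89 in descending aorta, 6.24, 4.16 and 5.20 in ascending aorta, and 5.15, 5.14 and 6.64 in superior mesenteric artery. All coronary artery arrays stood far above the rest, and the next highest were replicate 1 of descending aorta and replicate 3 of superior mesenteric artery. It was higher in coronary artery than in descending aorta by 6.02 ± 0.79, or 64.9-fold (limma adjusted p = 0.000802), and by 7.13 without descending aorta replicate 1. Against superior mesenteric artery the difference was 6.49 ± 0.79, or 89.9-fold (limma adjusted p = 0.000415), and 6.99 without its replicate 3. Myl7, the atrial myosin light chain of the cardiomyocyte list, read 9.24, 4.42 and 4.86 in descending aorta and 3.56, 4.86 and 7.86 in superior mesenteric artery, so the same arrays were high for this gene. The whole list of 17 averaged 5.80, 4.03 and 3.85 in descending aorta, where replicate 1 was again the highest, but 4.71, 4.17 and 4.73 in superior mesenteric artery, where replicate 3 was level with replicate 1. All 17 genes of the cardiomyocyte list were higher in coronary artery than in descending aorta, and the part of heart muscle transcripts in the Cox6a2 difference was not tested.

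Cox6a1, the form made in most tissues, read 10.84, 10.83 and 10.57 in coronary artery, 11.55, 11.47 and 11.69 in descending aorta, 10.89, 11.45 and 11.58 in ascending aorta, and 10.77, 10.61 and 10.47 in superior mesenteric artery. Its coronary artery arrays stood with the mesenteric arrays, unlike most members. The difference from descending aorta was -0.82 ± 0.20, 1.77-fold lower in coronary artery (limma adjusted p = 0.0450). Cox8a, the widely made form of subunit 8, read 9.16, 9.44 and 9.17 against 10.12, 10.32 and 10.27, a difference of -0.98 ± 0.24 (limma adjusted p = 0.0474). Both calls were close to the threshold. With the replicate number as a block the limma adjusted p was 0.0859 for Cox6a1 and 0.0554 for Cox8a. After median centring it was 0.0538 for Cox8a. The call of Cox6a1 was lost on leaving out any 1 array except ascending aorta replicates 1 and 3, and that of Cox8a on leaving out any array of another vessel than ascending aorta, with limma adjusted p up to 0.172 and 0.181.

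The muscle forms Cox7a1 and Cox8b, which the rule left out, did not follow Cox6a2 between coronary artery and descending aorta. Cox7a1 read 11.23, 11.13 and 11.35 in coronary artery, 10.99, 11.11 and 11.25 in descending aorta, 8.96, 11.07 and 10.91 in ascending aorta, and 4.93, 6.85 and 4.94 in superior mesenteric artery. It was high in every vessel but the last. Its difference between coronary artery and descending aorta was 0.12 ± 0.55 (limma adjusted p = 0.979), and that of Cox8b was 0.08 ± 0.41 (limma adjusted p = 0.981). Over superior mesenteric artery Cox7a1 was higher by 5.66 ± 0.55 in coronary artery and by 5.55 ± 0.55 in descending aorta, and Cox8b by 4.31 ± 0.41 and 4.23 ± 0.41. Both genes are made in heart muscle and in brown fat. Ndufa4l2, a relative of Ndufa4 known from low oxygen and not matched by the rule, was at 0.14 between coronary artery and descending aorta and passed no F test (limma adjusted p = 0.104).

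**Figure D4:**
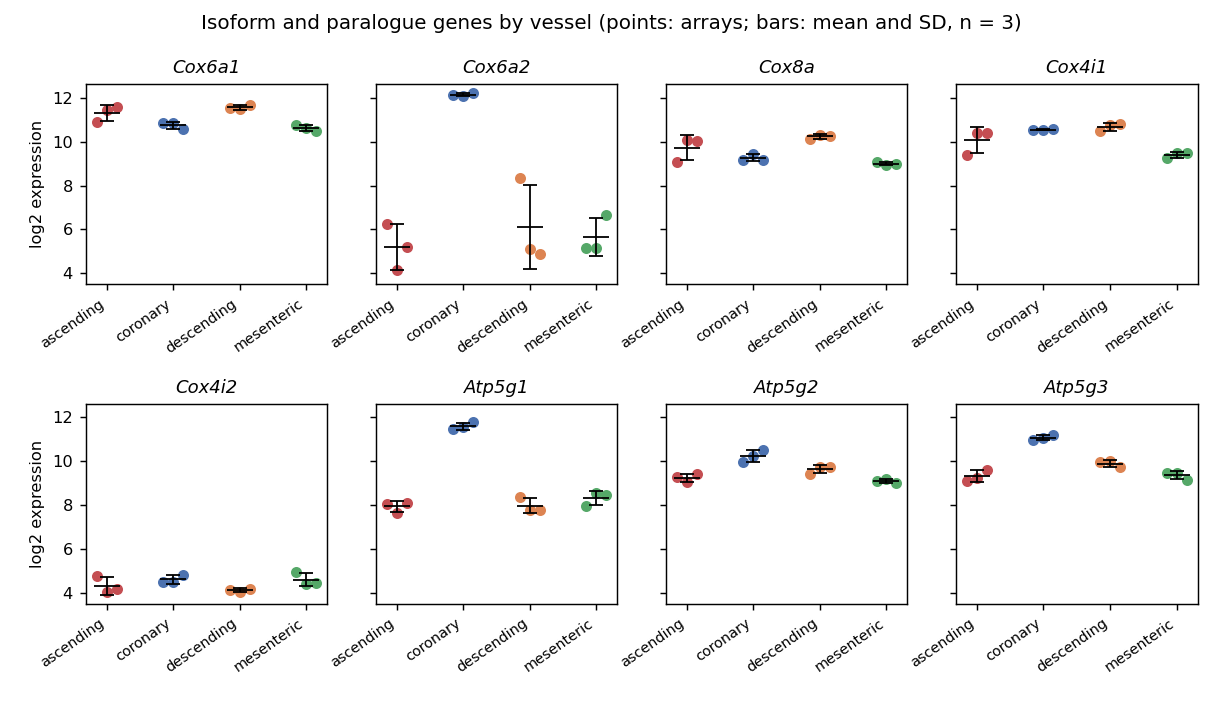
Log2 expression (y axis) of complex IV isoforms and of the 3 genes for ATP synthase subunit c by vessel; points are arrays and bars are the mean and SD (n = 3). Cox6a2 and Atp5g1 are far higher in the coronary artery arrays than in the others, while Cox6a1 and Cox8a are higher in descending aorta than in coronary artery.

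Atp5g1, Atp5g2 and Atp5g3 encode the same mature subunit c, which forms the rotating ring of the ATP synthase, with different import sequences. Atp5g1 read 11.46, 11.56 and 11.78 in coronary artery, 8.39, 7.80 and 7.76 in descending aorta, 8.07, 7.64 and 8.12 in ascending aorta, and 7.97, 8.54 and 8.46 in superior mesenteric artery. Only the coronary artery arrays were high, and the other 3 vessels overlapped. The difference from descending aorta was 3.62 ± 0.23, or 12.3-fold (limma adjusted p = 1.99e-06), and from superior mesenteric artery 3.28 ± 0.23, or 9.69-fold (limma adjusted p = 3.43e-06). Between descending aorta and superior mesenteric artery it was at -0.34 ± 0.23, unlike the members' median there.

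Atp5g3 read 10.96, 11.07 and 11.22 in coronary artery, 9.95, 10.02 and 9.72 in descending aorta, and 9.49, 9.49 and 9.17 in superior mesenteric artery. The coronary artery arrays were above all others, by 1.19 ± 0.19 over descending aorta (2.28-fold, limma adjusted p = 0.00317). Atp5g2 read 9.95, 10.22 and 10.50 in coronary artery and 9.42, 9.75 and 9.76 in descending aorta, a difference of 0.58 ± 0.19 that was not called (limma adjusted p = 0.158, 95% interval 0.17 to 0.99). Atp5j, coupling factor 6 of the outer stalk, read 9.65, 9.77 and 9.95 against 8.79, 8.89 and 8.98, a difference of 0.90 ± 0.16 (limma adjusted p = 0.00709). Its descending aorta arrays lay close to the mesenteric arrays, at 8.70, 8.68 and 8.61.

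Counts by complex of genes whose coronary artery and descending aorta arrays did not overlap are given beside the shares of all genes, 9.88% above and 12.5% below; the difference between complexes was not tested. In complex V, 10 of 17 genes had all coronary artery arrays above the descending aorta arrays and 2 had them below, Atp5a1 and Atp5b, the catalytic alpha and beta subunits. In complex II, 0 of 4 genes had them above and 3 below (Sdha, Sdhc and Sdhd). The counts were 11 above and 3 below of 34 in complex I, 1 and 2 of 8 in complex III, and 5 and 2 of 15 in complex IV. Sdha read 8.15, 7.93 and 8.28 in coronary artery and 8.62, 8.92 and 8.87 in descending aorta, a difference of -0.68 ± 0.21 that was not called (limma adjusted p = 0.126). Within each array, the complex V mean minus the complex II mean was 1.87, 1.96 and 1.90 in coronary artery, 1.11, 0.85 and 0.99 in descending aorta, 1.52, 0.96 and 1.17 in ascending aorta, and 1.68, 1.96 and 1.87 in superior mesenteric artery. The coronary artery and mesenteric arrays overlapped in this balance and the descending aorta arrays were lower. The complex IV mean minus the complex II mean was 0.07, 0.18 and -0.03 in coronary artery and -0.52, -1.0 and -0.76 in descending aorta. It was 0.02, -0.73 and -0.62 in ascending aorta and 0.13, 0.27 and 0.41 in superior mesenteric artery. Single genes weigh on these means. Between coronary artery and descending aorta Cox6a2 differed by 6.02, where the median of complex IV was 0.05. Atp5g1 differed by 3.62, where the median of complex V was 0.24. The complex IV mean also holds Cox4i2, Cox6b2, Cox7b2 and Cox8c, with means over all arrays of 4.42, 5.79, 2.14 and 2.53. Between descending aorta and superior mesenteric artery these differed by -0.47, 0.39, -0.08 and -0.1, where the median of complex IV was 0.95. These within-array balances compare vessels and give no order of the complexes, since probes differ, and no test was made of them.

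Ascending aorta gave few calls, and its replicates were spread. The median SD of the members was 0.63 in ascending aorta, 0.11 in coronary artery, 0.16 in descending aorta and 0.20 in superior mesenteric artery, where the medians over all genes were 0.27, 0.23, 0.21 and 0.24. Replicate 1 was the lowest of the 3 ascending aorta arrays for 72 of 79 members, among them all 34 of complex I, and it was the lowest for 39.3% of all genes. The same array had the smooth muscle list at 6.42 (8.26 and 8.37 in the other replicates) and the shared adipocyte list at 6.85 (8.53 and 8.83), besides the B cell list at 7.54. Its fibroblast list was at 5.88 (8.54 and 8.45) and its T cell list at 6.92 (3.51 and 4.32). The part of these other transcripts in the members' low values was not tested. The means of replicates 2 and 3 over the members, 9.26 and 9.27, lay below all coronary artery and descending aorta arrays and above all mesenteric arrays.

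Against coronary artery, 10 members were lower in ascending aorta and 0 higher, where 1.87% of all genes were lower and 0.602% higher, and the median difference was -0.71. Called were Cox6a2, Atp5g1, Atp5g3, Atp5j, Ndufs6, Atp5pb, Atp5c1, Atp5g2, Ndufa3 and Cox7a2l, 6 of them subunits of the ATP synthase. Cox6a2 differed by -6.93 ± 0.79, 122-fold lower in ascending aorta (limma adjusted p = 0.00026), and Atp5g1 by -3.66 ± 0.23, 12.6-fold lower (limma adjusted p = 1.47e-06). Atp5g3 read 9.10, 9.25 and 9.62 in ascending aorta, below every coronary artery array, a difference of -1.76 ± 0.19 (limma adjusted p = 0.000146). Atp5c1 differed by -1.17 ± 0.18 and Atp5j by -1.28 ± 0.16, with limma adjusted p of 0.00273 and 0.000609. Cox7a2l, the supercomplex factor, read 8.85, 8.78 and 8.67 against 9.44, 9.70 and 9.70 (limma adjusted p = 0.0395). All 17 cardiomyocyte list genes were lower in ascending aorta too. Of the shared adipocyte list, 6 of 15 genes were higher there and 0 lower, and of the smooth muscle list 4 of 13 were higher and 1 lower. Of the brown adipocyte list with Cox7a1 and Cox8b, 3 of 11 genes were higher and 0 lower. The part of these lists in the members' differences was not tested. The median was -0.37 without ascending aorta replicate 1, and 6, 5 and 5 members were called without coronary artery replicate 1, 2 and 3, when the calls of Ndufs6 and Atp5pb were lost in each case and that of Atp5g2 without replicate 2 or 3 or without ascending aorta replicate 2.

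Against descending aorta, 0 members were called, where 0.0150% of all genes were, although 55 of 79 had an unadjusted limma p under 0.05, as had 1922 of all 19938 genes. The median difference was -0.67, with 77 members negative, and in 53 members all ascending aorta arrays lay below the descending aorta arrays, as in 9.62% of all genes. Uqcrfs1 read 7.16, 8.06 and 8.01 in ascending aorta and 8.44, 8.99 and 8.81 in descending aorta, a difference of -1.0 ± 0.25 with a limma adjusted p of 0.391. Without ascending aorta replicate 1 the median was -0.28 and the count of calls was still 0.

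Against superior mesenteric artery, 1 member was called, Cox5a, higher in ascending aorta by 1.38 ± 0.23, or 2.61-fold (limma adjusted p = 0.0380), where 0.135% of all genes were higher. The median difference was 0.77, and 53 of 79 members had an unadjusted limma p under 0.05, as had 1439 of all 19938 genes. The count moved with ascending aorta replicate 1: without it 60 members were called and the median was 1.08, with array weights (0.262 for that array) 52 were called, and without any other array the count was 0. Cox5a then had a limma adjusted p of 0.0652 to 0.203. Cycs read 8.07, 9.80 and 9.51 in ascending aorta, with replicate 1 the lowest and all 3 above the mesenteric arrays, and it was at 1.85 ± 0.36 (limma adjusted p = 0.0885).

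**Figure D5:**
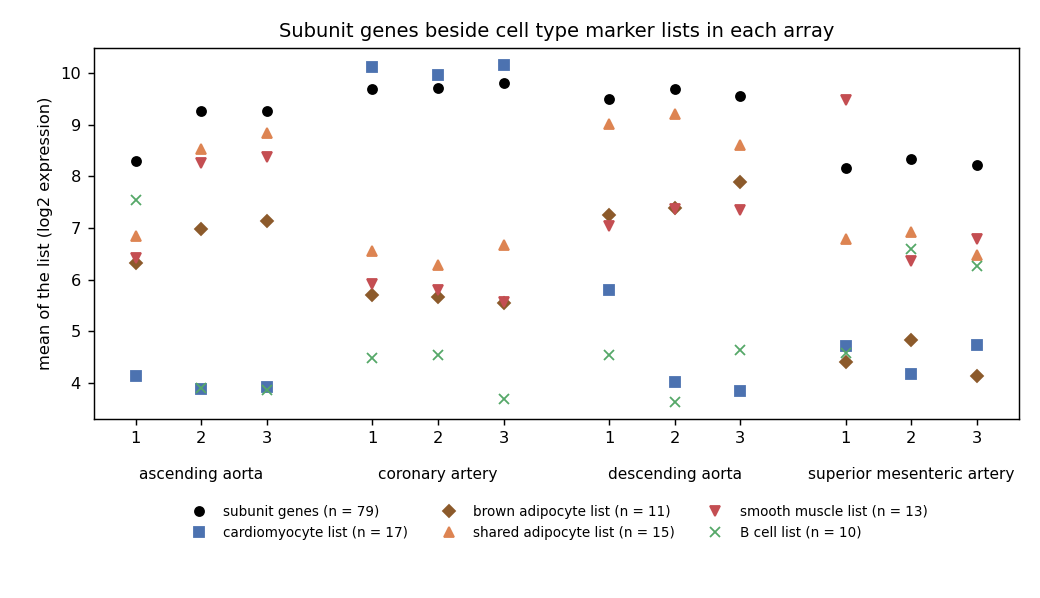
Mean log2 expression (y axis) of the subunit genes and of 5 cell type marker lists in each array, by vessel and replicate; each point is 1 array and n in the key is the number of genes. The cardiomyocyte list is high in the 3 coronary artery arrays, the brown adipocyte list is highest in descending aorta, and ascending aorta replicate 1 combines a high B cell list with low subunit genes. Superior mesenteric artery replicates 2 and 3 have the next highest B cell lists, at 6.59 and 6.26.

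Genes that work with the chain are given from lists by function. Over all genes, 4.72% passed the F test, and 2.71% were higher in coronary artery and 2.84% in descending aorta than in superior mesenteric artery. Of all genes 1.61% were lower in coronary artery than in descending aorta. Of the TCA cycle genes, which supply NADH and succinate, 16 of 16 passed the F test, 13 were higher in coronary artery and 16 in descending aorta than in superior mesenteric artery, and 3 (Sucla2, Suclg1 and Dld) were lower in coronary artery than in descending aorta. Suclg1, a subunit of succinyl-CoA ligase, read 7.75, 7.59 and 7.77 in coronary artery, 8.77, 9.26 and 8.93 in descending aorta, and 6.31, 6.24 and 6.23 in superior mesenteric artery. The arrays of these 3 vessels did not overlap. Of 45 assembly factors, which build the complexes, 16 passed the F test, with 15 higher in coronary artery and 16 in descending aorta than in superior mesenteric artery. Atpaf2, an assembly factor of the ATP synthase, read 6.64, 7.44 and 6.72 in descending aorta and 5.33, 5.15 and 4.89 in coronary artery, the reverse of Atp5g1, Atp5g3 and Atp5j (difference -1.81 ± 0.25, limma adjusted p = 0.00132).

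Of 16 genes listed as adenine nucleotide, phosphate and proton carriers, 13 passed the F test, where 4.72% of all genes passed. The list also takes in Vdac porins and mitochondrial creatine kinase, which are not inner membrane carriers. Between coronary artery and descending aorta 6 genes of the list were higher in coronary artery and 3 lower, where 1.53% and 1.61% of all genes were. Ckmt2, the mitochondrial creatine kinase of striated muscle, was higher in coronary artery by 5.19 ± 0.24 (limma adjusted p = 1.38e-07) and Slc25a4, the muscle form of the ADP/ATP carrier, by 1.83 ± 0.27 (limma adjusted p = 0.00212). Slc25a3, which brings phosphate to the ATP synthase, was higher by 1.08 ± 0.18, and the difference of Ucp1 was -6.72 ± 0.83, lower in coronary artery (limma adjusted p = 0.000492). Of 19 regulators of mitochondrial biogenesis, 3 passed the F test: Ppara, Ppargc1b and Esrrg. Ppara, a receptor that controls fatty acid use, read 5.70, 5.77 and 6.47 in descending aorta, 4.56, 4.45 and 4.84 in coronary artery, and 4.20, 3.84 and 3.93 in superior mesenteric artery. Esrrg, an oestrogen-related receptor, was higher in coronary artery than in superior mesenteric artery by 1.58 ± 0.28 (limma adjusted p = 0.00728). Of the other lists, 7 of 21 genes of coenzyme Q and heme synthesis, 8 of 21 of inner membrane shape and import and 8 of 17 of glycolysis passed, against 4.72% of all genes. Pgam2 and Eno3, the muscle forms of their glycolytic enzymes, were higher in coronary artery than in descending aorta by 5.22 ± 0.41 and 4.30 ± 0.33, and Pfkm was also higher, by 1.65 ± 0.32. Pfkl and Pgam1 were lower there, with differences of -1.35 ± 0.25 and -1.72 ± 0.30, and the median over the 17 glycolysis genes was -0.64.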

How the data were processed

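The authors deposited log2 expression values of 35556 probe sets on 12 arrays; RMA (background correction, normalization and summary) and Partek 6.6 were used, per the submitters' processing notes, which give no order. Details of the normalization are not given in the sources here. Per the labels' protocols, RNA was extracted with Trizol and cRNA was made from 6 ug. By the platform annotation, 21789 probe sets had 1 symbol and were used, 1621 had several and 12146 none. The probe set with the highest mean stood for a gene, which gave 19938 genes. Of the members, 17 had more than 1 probe set, and 0 of the other 26 probe sets went the opposite way between coronary and superior mesenteric artery. Cox7c and Ndufb4 were on probe sets with several symbols and are not members.

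Vessel means were fitted over all genes and arrays with limma 3.58.1 (R 4.3.3, the data.table package in version 1.17.8, default moderation, 8 residual degrees of freedom), with an F test and 6 contrasts, each adjusted over all genes by Benjamini-Hochberg with a threshold of 0.05. Members, lists and the genes to be named (the strongest calls of each comparison, the 3 smallest F test p of each complex, all isoform groups, extremes of mean level and the nearest genes left out) were chosen with earlier results of these data known, and so were the 3 arrays left out together as an alternative. A few other members were named to complete counts. Data were simulated for coronary against superior mesenteric artery (19938 genes, 200 changed, 10 runs). The fit recovered 41.8%, 90.8%, 97.8% and 98.6% of genes changed 2-, 4-, 8- and 16-fold, and 5.93% of calls were false. Each simulated gene was drawn independently, with 1 SD shared by all vessels. The members ran together, with a median SD of 0.63 in ascending aorta and 0.11 in coronary artery, so these rates need not hold for them. Promoter sequences are RefSeq's, searched with Python 3.11.15 and pandas 2.3.3; figures used matplotlib 3.10.9.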

Additional observations from a re-analysis of the deposited data

How the results depend on the processing

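Alternatives were median centring, a renewed quantile normalization, leaving out the dimmest 25% of genes, averaging probe sets, array weights, robust variance with an intensity trend, a replicate block, fitting only the 6 arrays of a pair, leaving out 3 arrays together (replicate 1 of each aortic segment and replicate 3 of superior mesenteric artery), and leaving out each array in turn. The cause of each change below was not tested. After quantile normalization the median difference of the members was 1.29 for coronary minus superior mesenteric artery and 1.23 for descending aorta minus superior mesenteric artery, and Cox7b between coronary artery and descending aorta, not called, turned from 0.05 to -0.03. For ascending aorta against superior mesenteric artery, where 1 member was called, the count was 6 after quantile normalization, 52 with array weights, 46 without the 3 arrays and 0 in a fit of the pair's 6 arrays. For ascending aorta against coronary artery such a fit called 5 members in place of 10. Lost in it were the calls of Ndufs6, Atp5pb and Atp5g2, among others, at limma adjusted p of 0.0936, 0.0969 and 0.1. The Atp5g2 call was also lost after quantile normalization, where its difference was -0.64 in place of -0.97 (limma adjusted p = 0.175).

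Leaving out each array in turn gave 39 to 74 members in the F test, 5 to 13 for ascending aorta against coronary artery, 0 to 0 against descending aorta and 0 to 60 against superior mesenteric artery. It gave 4 to 8 for coronary artery against descending aorta, 35 to 72 for coronary and 25 to 69 for descending aorta against superior mesenteric artery. The medians ran from -0.90 to -0.37 (ascending minus coronary), -0.87 to -0.28 (ascending minus descending aorta), 0.55 to 1.08 (ascending minus mesenteric), 0.04 to 0.14 (coronary minus descending aorta), 1.45 to 1.58 (coronary minus mesenteric) and 1.34 to 1.49 (descending aorta minus mesenteric). Among results on single members, 43 calls in named comparisons were lost with an array left out and 449 kept their direction and side of the threshold; in the other alternatives 9 were lost and 357 kept. Same-numbered arrays of different vessels did not deviate together (correlations of -0.25 to 0.09 over 18 pairs). The labels do not say whether they share an animal, and with 3 arrays a vessel these correlations cannot decide it. With the replicate number as a block, 64 members passed the F test, and 66, 58, 4, 10, 1 and 0 were called for coronary and descending aorta against superior mesenteric artery, coronary artery against descending aorta, and ascending aorta against coronary, mesenteric and descending aorta. With 3 arrays a vessel, 41.8% of genes changed 2-fold were recovered in data simulated for coronary against superior mesenteric artery. Those genes were drawn independently, so the share need not hold for the members. Detection calls were not used here, so low levels may be background.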
